A study of Mus musculus with 5 samples.

Results

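Apoe, Aaas, Maea, Ppfibp2, Afmid, Mettl17, Rasgrf1 and Coq6 are 8 genes of a mouse heart muscle line that share 1 pattern of detection. Each has a probe seen on both arrays of cell RNA and on neither array of RNA from the microvesicles that the cells release. They were chosen by name with these values known, and every probe that carries one of the 8 symbols was then taken, which gave 22 of the 25697 probes on the array, and 8 of its 16593 named genes. The detection pattern was met by 14 of the 22. On the whole array it was met by 1051 probes of 911 named genes, 4.09% of all probes and 30.3% of the 3470 probes seen on both cell arrays. Because these values chose the genes, cell and vesicle levels are described here without a test. After normalization all 14 probes lay lower on both vesicle RNA arrays than on both cell arrays. So did 51.6% of the 3878 probes tested on the whole array. The detection rule alone does not force this order, but the genes were chosen with these values known, so it is no result.

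The cells were HL-1, an atrial cardiomyocyte line from mouse grown in Claycomb medium, the medium made for this line. Total RNA from the cells (2 arrays) and from their microvesicles (2 arrays), and DNA from the microvesicles (1 array), was hybridised as labelled cRNA to 1-colour Illumina bead arrays. A poly-T tail, added to the DNA with terminal transferase, served for copying and labelling it. The labels name no treatment, all material came from this 1 line, and the labels do not say whether the replicates came from separate cultures, so any p-value measures only the spread between these arrays. Chip 1 held both cell arrays and vesicle RNA array 1, and chip 2 held vesicle RNA array 2 and the DNA array.

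Microvesicles are membrane-bound particles shed by cells, and they can carry RNA of the cell of origin to other cells. A transcript that the cell holds may be carried in proportion to its level, enriched or left behind. Not being seen on the vesicle arrays does not tell a transcript left behind from 1 carried below the detection limit. The 8 genes encode proteins of very different places in the cell. Apoe encodes a secreted lipid carrier, Aaas (aladin) and Maea encode subunits of the nuclear pore and of a ubiquitin ligase, Ppfibp2 encodes a liprin scaffold protein and Rasgrf1 an activator of Ras. Afmid encodes an enzyme of tryptophan breakdown, and Mettl17 and Coq6 encode mitochondrial proteins.

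A probe was called detected on an array when its detection p-value, the share of negative control probes at least as bright, was under 0.01. The controls number 798, as inferred from the steps of the p-value. Detection began at a raw intensity of 80.3 and 79.1 on cell arrays 1 and 2, 80.7 on vesicle array 1, 109.8 on vesicle array 2 and 93.5 on the array of DNA. The cell arrays saw 4179 and 3629 probes, the vesicle RNA arrays 2024 and 5605, and that of vesicle DNA 343. A share of 0.01 of the array is 257 probes. Each member value rests on 25 to 63 beads. Vesicle array 2 stood apart, with a median raw intensity of 90.9 against 62.6 to 63.6 on the other RNA arrays. Of the probes seen on both cell arrays, vesicle array 1 saw 54.1% and vesicle array 2 saw 59.8%. Of 9 cardiomyocyte markers on the array, 7 were on both cell arrays, while Tnni3 and Ryr2 were on neither. The markers of macrophages (5 on the array), fibroblasts (4), hepatocytes (4) and neurons (4) were on no RNA array, and of 4 endothelial markers only Tek was detected, on both cell arrays (raw intensity 80.3 and 82.9).

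The promoters of the members show whether anything in their start regions is shared, since the genes stand together by their detection. RefSeq windows of GRCm38.p6, from 250 bases before to 50 after the transcript start, were at hand for 7 of the 8 genes, Maea not among them. The first listed window of each gene was searched on both strands for the ETS motif CCGGAAG, the GC box GGGCGG, the CCAAT box CCAAT, the TATA box TATAAA, the NRF1 motif and the E-box CACGTG. The ETS motif was in 3 of the 7 windows and in 9.12% of the 27025 first windows of all genes, the GC box in 4 and in 35.9%, and the CCAAT box in 3 and in 37.9%. The TATA box, the NRF1 motif and the E-box were in 0 of the 7, against 14.2%, 0.977% and 7.24% of all windows. The 3 windows with the ETS motif are printed 5′ to 3′ with every match to these motifs in capitals.
Aaas, chr15:102350710-102351009, minus strand: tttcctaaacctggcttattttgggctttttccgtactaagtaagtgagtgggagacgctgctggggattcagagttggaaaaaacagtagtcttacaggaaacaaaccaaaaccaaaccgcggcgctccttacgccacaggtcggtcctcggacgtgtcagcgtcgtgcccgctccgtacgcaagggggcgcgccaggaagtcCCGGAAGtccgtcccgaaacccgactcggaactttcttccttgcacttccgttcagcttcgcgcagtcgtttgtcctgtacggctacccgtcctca
Ppfibp2, chr7:107594801-107595100, plus strand: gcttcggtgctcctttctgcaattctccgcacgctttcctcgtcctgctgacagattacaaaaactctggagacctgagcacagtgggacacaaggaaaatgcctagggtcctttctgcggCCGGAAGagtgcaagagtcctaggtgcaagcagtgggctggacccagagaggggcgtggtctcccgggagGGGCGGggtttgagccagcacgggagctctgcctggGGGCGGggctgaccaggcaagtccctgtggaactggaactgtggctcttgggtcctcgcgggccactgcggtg
Coq6, chr12:84361718-84362017, plus strand: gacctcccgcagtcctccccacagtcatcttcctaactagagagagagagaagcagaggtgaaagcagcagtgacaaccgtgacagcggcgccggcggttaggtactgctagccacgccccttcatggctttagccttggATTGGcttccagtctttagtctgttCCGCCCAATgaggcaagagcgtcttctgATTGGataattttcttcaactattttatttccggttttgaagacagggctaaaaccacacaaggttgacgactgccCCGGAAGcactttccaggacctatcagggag
The Aaas window holds the ETS motif once and 27 CpG pairs. The Ppfibp2 window holds it once with 2 GC boxes, and that of Coq6 once with 1 GC box and 3 CCAAT boxes, of which 1 overlaps the GC box. The median G and C content was 58.0% in the 7 windows and 52.7% in all windows, and the median ratio of observed to expected CpG was 0.685 and 0.389. All windows include those of genes not seen in the cells, so these shares do not separate expression in the cells from detection in vesicles. With 7 windows of genes chosen for their signal, these are descriptions of letters only.

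Apoe, the ligand that clears lipoproteins through receptors of the low density lipoprotein family, had 1 probe. Its raw intensity was 465.9 and 368.2 on cell arrays 1 and 2, 53.8 on vesicle array 1, 95.5 on vesicle array 2 and 56.0 on the DNA array. Both cell values lay above all controls, whereas on vesicle array 1 737 of the 798 controls were at least as bright as Apoe. On the normalized log2 scale, where all 4 RNA arrays share 1 distribution, the cell mean was 8.27 ± 0.058 (SD, n = 2) and the vesicle values were 4.27 and 4.57. As a bound on the mean of the 2 vesicle arrays, cells were at least 5.95-fold higher. For this bound a vesicle value under the lowest detected log2 value of its array was raised to it. That lowest value was 6.51 on vesicle array 1 and 4.88 on vesicle array 2. The mean of both arrays was then set against the cell mean. The bounds of the other genes below are of the same kind and hold under the main settings only. Without vesicle array 2 the bound of Apoe was 3.64-fold, and without vesicle array 1 it was 12.2-fold. Apoe is also strongly made by macrophages and hepatocytes, whose markers on the array were at background on all 4 RNA arrays. The summed raw intensity of the 5 macrophage markers was 293.0 to 335.1 on the cell arrays and 319.1 and 470.8 on the vesicle arrays. Of 7 listed macrophage markers 5 were on the array, and whether such cells added to the Apoe signal was not tested.

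Aaas, a WD-repeat protein of the nuclear pore whose human gene is mutated in triple A syndrome, had 2 probes that disagreed. The first read 548.9 and 415.8 in the cells and 68.2 and 82.2 in the vesicles, below 126 and 476 controls. In log2 terms it stood at 8.48 ± 0.034 (SD, n = 2) in the cells and at 4.78 and 4.35 in the vesicles, at least 6.90-fold higher in cells. The second probe was at background in the cells, with 65.5 and 60.8, and on vesicle array 1, with 56.9. On vesicle array 2 it read 113.0, just above the detection limit of that array. The same accession stands behind both probes, so the platform annotation does not separate them by transcript.

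Maea, the RING subunit of the CTLH ubiquitin ligase, lay closest to the edge of the rule. Its single probe read 597.9 and 357.2 in the cells, the widest gap between the cell arrays among the 14 probes (1.67 times, against a median of 1.34 over the 14 and 1.26 over all probes on both cell arrays). Vesicle array 1 gave 66.4, and vesicle array 2 gave 109.0, with 9 of the 798 controls at least as bright and a detection p of 0.0113. In log2 terms the cells stood at 8.42 ± 0.21 (SD, n = 2) and the vesicles at 4.65 and 4.86, at least 6.63-fold higher in cells. With a detection limit of 0.05 in place of 0.01 Maea would count as seen on vesicle array 2 and would leave the set.

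Ppfibp2, liprin beta 2, had 2 probes that both met the rule at different brightness. The brighter read 402.3 and 322.5 in the cells and 59.7 and 86.2 in the vesicles, where 500 and 310 controls were at least as bright. Its log2 values were 8.08 ± 0.091 (SD, n = 2) in the cells and 4.38 and 4.41 in the vesicles, at least 5.21-fold higher in cells. The dimmer read 166.2 and 118.9 in the cells and 63.8 and 106.2 in the vesicles, at least 1.74-fold higher in cells, and its detection p on vesicle array 2 was 0.0163. Neither probe was near the limit of vesicle array 1, and the dimmer was near that of vesicle array 2.

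Afmid, the formamidase that releases kynurenine from its formyl precursor, had 7 probes, the most of any member. Of these, 4 were on both cell arrays and all 4 were on neither vesicle array. The brightest read 406.5 and 299.1 in the cells and 60.4 and 92.8 in the vesicles, with a cell log2 mean of 8.02 ± 0.014 (SD, n = 2) against 4.39 and 4.52, at least 5.00-fold higher in cells. The next 2 had cell log2 means of 7.22 and 6.78 and bounds of 2.87-fold and 2.12-fold. The fourth was dim in the cells too (87.5 and 84.0), and gave no bound above 1. On vesicle array 1 the 4 probes read between 60.4 and 67.9, and on vesicle array 2 between 86.3 and 98.5, all below the detection limits of these arrays. The other 3 probes were on no cell array, and 1 of them read 116.5 on vesicle array 2, above the limit of that array.

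Mettl17, a methyltransferase-like factor for assembly of the small subunit of the mitochondrial ribosome, had 2 probes that met the rule. The brighter read 383.4 and 267.1 in the cells and 61.9 and 85.2 in the vesicles. Its cell log2 mean was 7.87 ± 0.088 (SD, n = 2) against 4.44 and 4.39, at least 4.51-fold higher in cells. The dimmer read 168.1 and 137.3 in the cells and 72.2 and 97.4 in the vesicles, where 54 and 79 controls were at least as bright, and its bound was 1.94-fold. No vesicle value of either probe reached the detection limit of its array.

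Rasgrf1, an exchange factor that switches Ras on in answer to calcium and calmodulin and is imprinted in mouse, had 4 probes. The first read 697.8 and 532.8 in the cells and 74.2 and 100.5 in the vesicles. By cell log2 mean, 8.84 ± 0.018 (SD, n = 2), it ranked at place 6 of the 1051 probes that met the rule. Its vesicle log2 values were 5.68 and 4.68, the widest spread of a vesicle pair among the 14 probes (SD 0.71), and cells were at least 8.81-fold higher. On vesicle array 1 it had 31 controls at least as bright, a detection p of 0.0388. A second probe read 427.9 and 309.2 in the cells and 58.3 and 81.0 in the vesicles, at least 5.26-fold higher in cells, with over 500 controls at least as bright on each vesicle array (566 and 524). These 2 probes are annotated to NM_011245, the other 2 to NM_001039655. The pair under NM_001039655 was on no cell array (61.0 to 73.3), and 1 of them read 117.8 on vesicle array 2. Rasgrf1 is best known from neurons, and the 4 neuron markers were on no RNA array. The source of the Rasgrf1 signal was not tested.

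Coq6, the monooxygenase that hydroxylates the ring of coenzyme Q during its synthesis, went in part against its place in the set. The probe that met the rule read 375.5 and 316.0 in the cells and 62.4 and 82.6 in the vesicles, with a cell log2 mean of 8.01 ± 0.15 (SD, n = 2) against 4.46 and 4.36, at least 4.96-fold higher in cells. A brighter probe read 1128.7 and 888.1 in the cells and was detected on vesicle array 1, at 92.7 with 1 control at least as bright (detection p 0.00125). On vesicle array 2 the same probe read 87.5, with 269 controls at least as bright. Its log2 values were 9.56 ± 0.049 (SD, n = 2) in the cells and 7.27 and 4.43 in the vesicles. The remaining probe was on no cell array and read 124.7 on vesicle array 2. So Coq6 was undetected in vesicles by 1 of its 2 cell-detected probes, and detected on 1 vesicle array by the other.

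**Figure D1:**
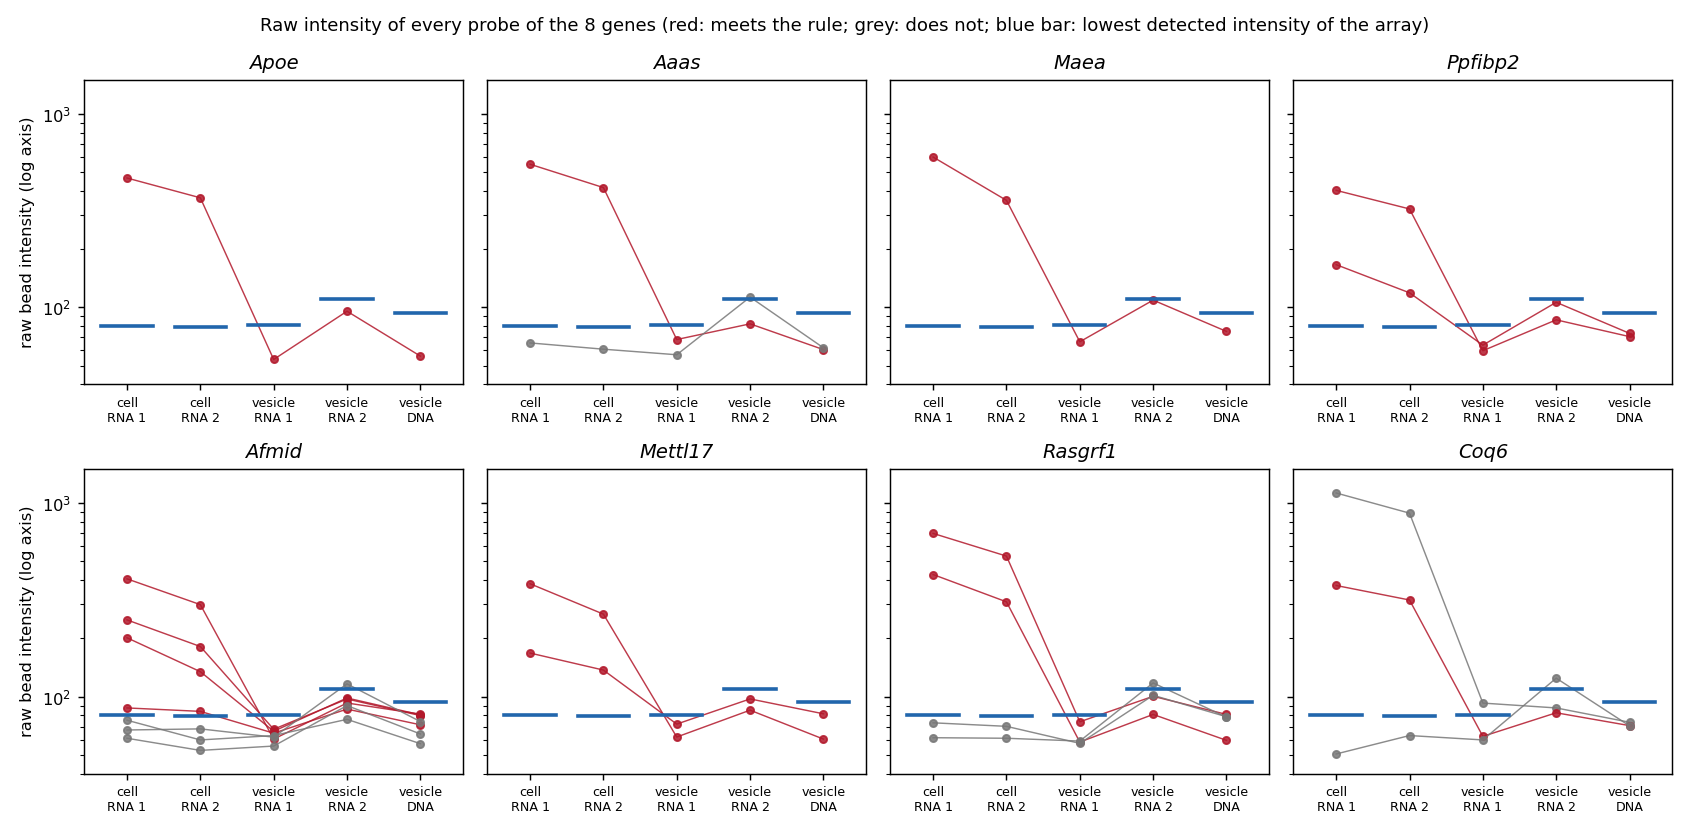
Raw bead intensity (log axis) of each of the 22 probes on the 2 cell RNA, 2 vesicle RNA and 1 vesicle DNA arrays, 1 panel per gene, lines joining the values of 1 probe. Red probes meet the rule, grey ones do not, and blue bars mark the lowest detected intensity of each array (80.3, 79.1, 80.7, 109.8 and 93.5); red points lie above the bars on the cell arrays and below them on both vesicle RNA arrays, and 1 grey Coq6 probe lies above the bar on vesicle array 1.

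The 14 probes that met the rule read 87.5 to 697.8 on cell array 1 (median 392.8) and 84.0 to 532.8 on cell array 2 (median 304.1). On vesicle array 1 they read 53.8 to 74.2 (median 64.3), and on vesicle array 2 81.0 to 109.0 (median 94.2). The rule sets the cell values above the limits of their arrays and the vesicle values below theirs, so the gap on chip 1 is no result. The dimmest cell values lay within the range of vesicle array 2, whose background was higher. All 14 read brighter on cell array 1 than on cell array 2, by 1.04 to 1.67 times. The median ratio was 1.34 over the 14 and 1.26 over all 3470 cell-detected probes, so this tilt was not particular to the members. After normalization the SD of the 2 cell log2 values was 0.013 to 0.21, and that of the vesicle values 0.0063 to 0.71. Both vesicle values of each probe lie below detection, so their SD is a spread of background and not of transcript levels. For RNA of whole vesicle preparations, fewer vesicles that carry a transcript and fewer copies per vesicle cannot be told apart.

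The bounds depended on 1 array. For the brightest probe per gene that met the rule they ran from 4.51-fold (Mettl17) to 8.81-fold (Rasgrf1). Without vesicle array 2, which leaves chip 1 alone, they ran from 2.72-fold (Mettl17) to 5.56-fold (Rasgrf1). Without vesicle array 1 they ran from 9.27-fold (Mettl17) to 18.1-fold (Rasgrf1). A bound was given only where it exceeded 1, so its direction was fixed in advance in each of the 8 genes. By construction the array with the higher lowest detected log2 value, vesicle array 1, gives the smaller bounds. With an offset of 50 in place of 16 the bound of Apoe was 3.84-fold and that of Rasgrf1 5.51-fold, and with median scaling they were 10.8-fold and 16.5-fold.

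Brightness is used here only as distance from the background, since signals of different probes are not comparable as transcript levels. The median cell log2 value of their 14 probes was 8.01, against 6.21 for all 1051 probes that met the rule and 6.83 for the 3470 probes on both cell arrays. The share of cell-detected probes seen on neither vesicle array depended on brightness. It was between 45.2% and 51.0% in bins 1 to 4 of 10 equal bins of the cell-detected probes, ordered from dim to bright (347 probes each). It was 21.9% in bin 7, 9.51% in bin 8, 2.88% in bin 9 and 0.288% in bin 10. Of the 14 member probes, 8 fell in bin 8, between cell log2 values of 7.84 and 8.56, where 33 probes met the rule and 67.4% were on both vesicle arrays. Rasgrf1 supplied 1 probe in bin 9, where 10 probes met the rule. The dimmest member probe, of Afmid, lay in bin 1, where 45.2% of the probes met it.

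**Figure D2:**
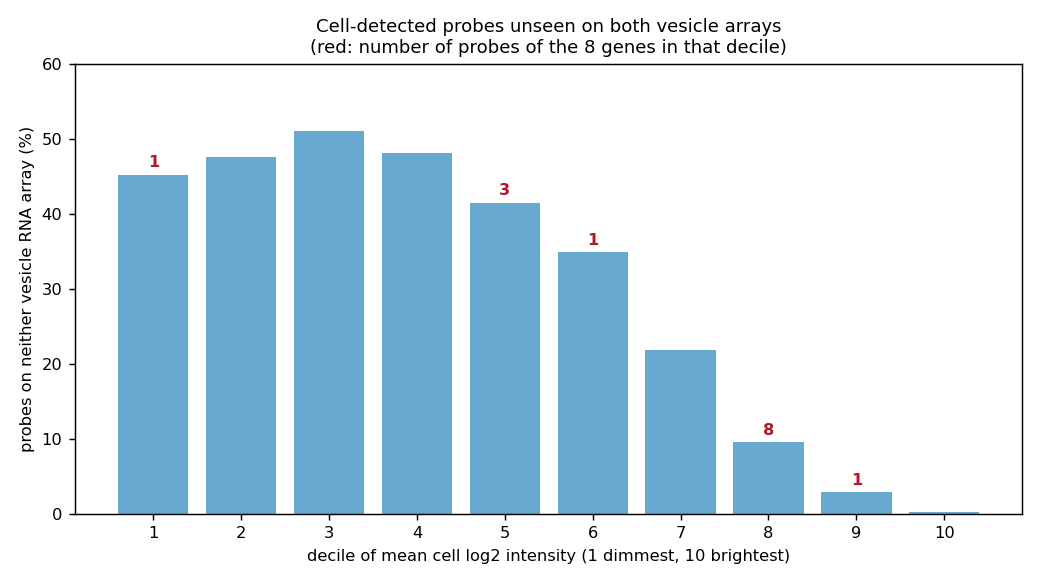
Share of probes detected on neither vesicle RNA array (y axis, percent) by bin of the mean cell log2 intensity (x axis, 10 bins of 347 probes, dimmest at 1), over the 3470 probes on both cell RNA arrays. Red numbers count the probes of the 8 genes that met the rule; 8 of the 14 lie in bin 8, where the share was 9.51%.

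On vesicle array 1 the 14 probes differed from their cell means by -4.00 (Apoe) to -0.93 (the dimmest Afmid probe) in log2 terms, with a median of -3.49. All 1051 probes of this class had a median of -1.31 there, and the 3470 cell-detected probes -0.44. On vesicle array 2 the members ran from -4.16 (Rasgrf1) to -1.08, with a median of -3.53, against -1.65 for the class and -1.48 for all cell-detected probes. On both arrays these member values were at background, so the differences are bounded below by it. The vesicle values of the class were below detection too. The larger differences of the members therefore go with their brighter cell signal (median cell log2 8.01 against 6.21 for the class). Vesicle values below detection cannot show whether the loss of the members was stronger or not.

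**Figure D3:**
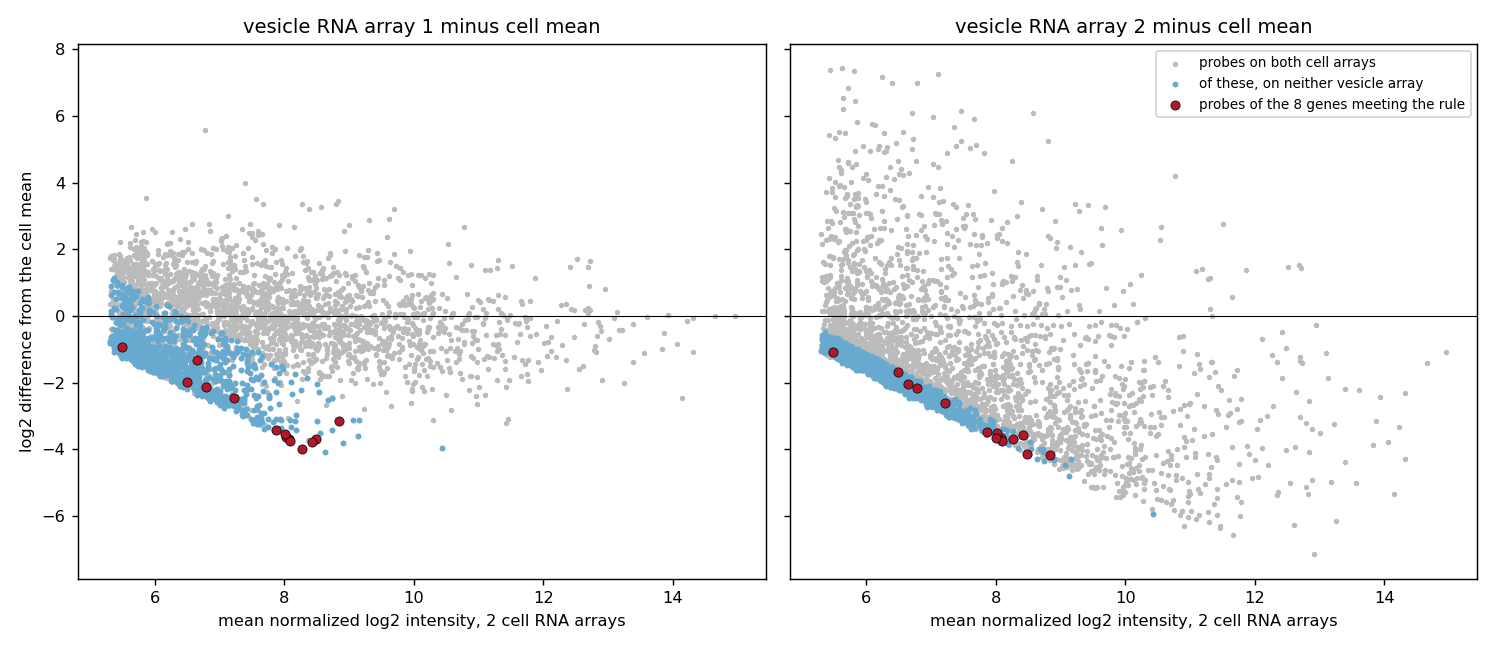
Log2 difference of each vesicle RNA array from the cell mean (y axis) against the mean cell log2 intensity (x axis) for the 3470 probes on both cell RNA arrays; blue, on neither vesicle array (1051); red, the 14 probes of the 8 genes. The red points run from -4.00 to -0.93 on vesicle array 1 and from -4.16 to -1.08 on vesicle array 2.

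Other probes of the same genes show how far 1 probe speaks for its gene. Of the 8 genes, 5 had several probes on both cell arrays (Afmid, Ppfibp2, Mettl17, Rasgrf1 and Coq6), and in 4 of them all such probes were on neither vesicle array, Coq6 being the exception. Over the whole array, 195 genes had several cell-detected probes of which at least 1 met the rule, and in 66 of them (33.8%) all did. The members were picked from genes at 1 end of the data, so these shares are set side by side as a description. Probes of 1 gene share its RNA and are no replicates of each other.

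The remaining 7 member probes were on no cell array, and 4 of them, 1 each of Aaas, Afmid, Rasgrf1 and Coq6, were on vesicle array 2 alone. Of all 21359 probes on no cell array, 14.8% were on vesicle array 2 alone. Their raw intensities on vesicle array 2 were 113.0 to 124.7, close above its limit of 109.8. On vesicle array 1 the same 4 probes read between 56.9 and 61.8, and none was near its limit of 80.7. The higher background of vesicle array 2, given above, moved with these calls, and its part in them was not tested.

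The microvesicle DNA array was not used in choosing the genes. On it 0 of the 22 probes were detected, against 1.33% of all probes and 2.10% of the probes on both cell arrays. The first share corresponds to 0.294 of 22 probes, so a count of 0 cannot be told from it. Member probes read 56.0 (Apoe) to 81.6 (Mettl17), below the limit of 93.5, with detection p-values from 0.134 to 0.920. With 1 DNA array there is no replicate of this reading.

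The 5 genes outside the set whose brightest probe lay nearest to the mean profile of the 14 probes over the 4 RNA arrays were Alg3, Snrpb, Hrc, Elp2 and Mcm10. Likeness was the Euclidean distance of normalized log2 values, which was 0.17 for Alg3, an enzyme of N-glycan assembly, and 0.28 for Mcm10, a replication factor. Hrc, a calcium-binding protein of the sarcoplasmic reticulum (0.20), had log2 values of 7.73 and 7.55 in the cells and 4.72 and 4.40 in the vesicles. Snrpb, a core protein of the spliceosome (0.19), had cell values of 7.70 and 7.78. The members themselves lay 0.44 (Mettl17) to 3.02 (the dimmest Afmid probe) from their mean, further than these outside genes. The outside genes were picked as the nearest of all other named genes, so this order is no result.

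Partners of the 8 proteins were taken from 8 lists of the same pathway or complex, the members left out. Of 137 listed genes, 116 were on the array and 31 were tested, each by its brightest probe. In limma over all 3878 tested probes 0% were higher and 0% lower at an adjusted p of 0.05, and 0 of the 31 passed in either direction. At an unadjusted limma p under 0.05, 10 of the 31 were lower and 2 higher in vesicles. Of all 3102 tested genes 658 were lower and 181 higher, and of all tested probes 23.2% were lower and 5.52% higher. The median log2 difference of the 31 was -1.01, and over all 3102 tested genes it was -0.84. Of 29 partner genes on both cell arrays, 9 (31.0%) were on neither vesicle array, close to the 27.7% of all such genes. The count of calls depended on the fit. With chip as a block limma called 5 of the 31 higher and 21 lower, and with median scaling 0 and 14, where all tested probes gave 968 and 1735, and 7 and 1651. The fit with chip as a block rests on chip 1 for the difference.

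Of 7 tested nuclear pore genes, the partners of Aaas, 3 lay below both cell arrays on both vesicle arrays and 1 above, where 50.3% of all tested genes lay below and 15.0% above. Nup43, a scaffold nucleoporin, was on all 4 RNA arrays, with raw intensities of 388.6 and 297.1 in the cells and 126.3 and 170.1 in the vesicles (log2 difference -0.90 ± 0.90, SE, limma adjusted p = 0.529). Nup155, another scaffold subunit, was on neither vesicle array, with 201.6 and 153.4 against 73.7 and 93.0 (at least 2.31-fold higher in cells, limma adjusted p = 0.134). The median of the list was -0.51, and it was -0.24 without vesicle array 1 and -0.57 without vesicle array 2.

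In the ubiquitin ligase of Maea, 1 of 10 partners was tested. Gid8, a subunit of the same complex, read 681.3 and 542.5 in the cells and 136.7 and 136.2 in the vesicles, detected on both (-1.93 ± 1.18, SE, limma adjusted p = 0.339). Its log2 values in the vesicles were 8.41 and 5.39, so the difference rested on the array: it was -0.45 without vesicle array 2 and -3.59 without vesicle array 1.

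Among the lipoprotein genes around Apoe, 5 of 20 on the array were tested, 4 below both cell arrays and 1 above, against 50.3% and 15.0% of all tested genes. Their median was -1.34, and it was -1.03 without vesicle array 2 and -1.76 without vesicle array 1. Clu, a secreted chaperone that is also carried on lipoproteins, read 1583.6 and 1153.4 in the cells and 116.8 and 147.3 in the vesicles (-3.21 ± 0.97, SE, limma adjusted p = 0.144). Lpl, the lipase that frees fatty acids from lipoproteins, read 351.8 and 234.9 against 83.3 and 330.0 (-0.55 ± 0.45, SE, limma adjusted p = 0.447). Both were on all 4 RNA arrays.

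Coq5 and Coq9, which like Coq6 act in coenzyme Q synthesis, were each on vesicle array 2 and not on vesicle array 1. Coq5, a methyltransferase, read 157.0 and 108.1 in the cells and 74.8 and 156.9 in the vesicles (-0.60 ± 0.34, SE, limma adjusted p = 0.312). Coq9, a lipid-binding partner of the pathway, read 118.7 and 90.9 against 73.5 and 120.0 (-0.60 ± 0.37, SE, limma adjusted p = 0.349). Vesicle array 1 saw the brightest Coq6 probe and none of the 4 tested genes of this list (Coq5, Coq9, Coq8b and Coq10b). The list's median was -0.64.

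For Mettl17, 8 genes of mitochondrial ribosome assembly were tested, 6 below both cell arrays and 1 above, against 50.3% and 15.0% of all tested genes. Their median was -2.26, and it rested on vesicle array 2, being -0.96 without that array and -3.10 without vesicle array 1. Rbfa, a factor of small subunit maturation, read 984.8 and 983.2 in the cells and 157.5 and 127.8 in the vesicles (-2.58 ± 1.36, SE, limma adjusted p = 0.290). Noa1, a GTPase of the same process, read 962.9 and 822.2 against 129.1 and 118.8 (-2.75 ± 1.25, SE, limma adjusted p = 0.250). By their brightest probes both were on all 4 RNA arrays. Another Noa1 probe (cell log2 mean 8.74) was on 1 vesicle array, and a dimmer one (6.13) was on neither. By brightest probe 3 of the 8 genes were on neither vesicle array, against 27.7% of all genes on both cell arrays.

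Each of the 3 remaining lists held few tested genes. Kyat1, an aminotransferase that acts on kynurenine downstream of Afmid, read 246.7 and 208.5 in the cells and 84.2 and 107.9 in the vesicles, detected on vesicle array 1 only (-1.50 ± 0.81, SE, limma adjusted p = 0.300). Its difference was -0.54 without vesicle array 2 and -2.71 without vesicle array 1. Ptprs, a receptor phosphatase of the family that liprins bind, read 85.8 and 79.2 against 65.0 and 129.2 and was on vesicle array 2 only (-0.45 ± 0.41, SE, limma adjusted p = 0.489). Its difference was -0.57 without vesicle array 2 and -0.13 without vesicle array 1. In the Ras list 4 genes were tested, with a median of -0.51, which was -0.18 without vesicle array 2 and -0.84 without vesicle array 1. Rasa1, which switches Ras off, read 736.1 and 478.6 in the cells and 107.0 and 133.1 in the vesicles (-2.25 ± 0.98, SE, limma adjusted p = 0.235), and Calm3, a calmodulin gene, 699.4 and 490.2 against 191.4 and 521.2 (-0.02 ± 0.41, SE, limma adjusted p = 0.980). Both were on all 4 RNA arrays. Nras, picked out after its values were seen, read 325.7 and 224.1 in the cells and 325.0 and 7426.9 in the vesicles (3.78 ± 0.98, SE, limma adjusted p = 0.126), with its high value on vesicle array 2.

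**Figure D4:**
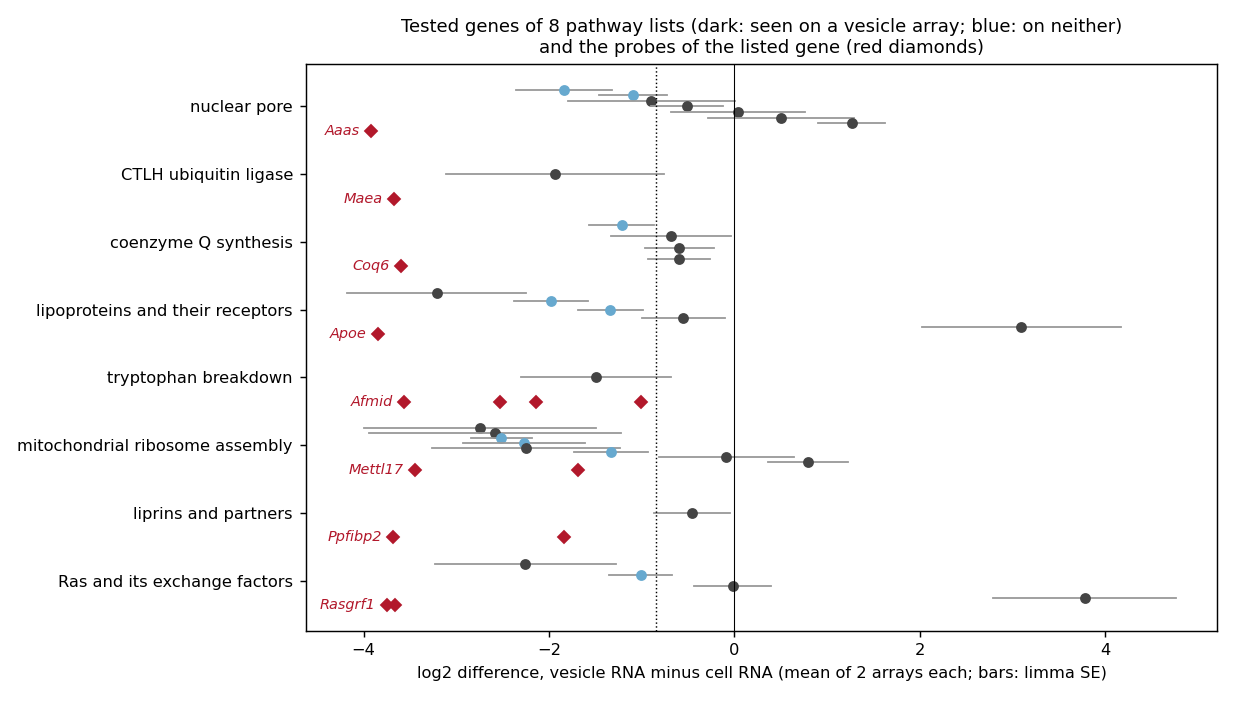
Log2 difference, vesicle RNA minus cell RNA (x axis, means of 2 arrays each), of the 31 tested partner genes by list, with limma's SE as bars; blue points were on both cell arrays and neither vesicle array, dark points were seen on a vesicle array, and the dotted line is the median of all tested genes (-0.84). Red diamonds are the member probes that met the rule, from -3.92 (Aaas) to -1.01 (Afmid), shown without error because they were chosen by these values.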

How the data were processed

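The 5 arrays of the series were read from a table that was not normalized and from a table of processed values. Per the file headers, the authors deposited for each probe the mean bead intensity without background subtraction, the standard error of the bead intensities, the number of beads and a detection p-value. The authors also deposited processed intensity values, from which background had been subtracted; the sources used here do not give their scaling. The submitters' processing notes name BeadStudio 3.3. Groups and replicate numbers came from the sample titles.

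Raw intensities of the 4 RNA arrays were normalized with neqc of limma 3.58.1 in R 4.3.3, which took the control levels from the detection p-values, added an offset of 16, which compresses dim signals, and set all arrays to 1 distribution. The two-sided test (lmFit, then eBayes, no block) covered the 3878 probes seen on 2 or more RNA arrays, and p-values were adjusted over all of them by Benjamini-Hochberg. The fit was tested on simulated data in which all 4 RNA arrays had the spread of the cell pair. That test does not cover the spread of the vesicle pair. A lower bound was given where a probe was detected on both cell arrays and neither vesicle array. Gene names came from the platform annotation, which gives 1 symbol for 23978 probes and none for 1719, and all 8 members were found in the RefSeq table of GRCm38.p6. Each gene outside the set was read from its probe with the highest mean over the RNA arrays. The rule for named genes took the 8 members, the 2 partners per list with the highest cell level among those on both cell arrays, the 5 nearest profiles and the cell type markers. The members and lists were chosen with earlier results of these data known. Alternatives changed the detection limit, the offset, the normalization, the filter, the block, the table used and the arrays kept. With 2 arrays per RNA group, the number of arrays limits the precision.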

Additional observations from a re-analysis of the deposited data

How the results depend on the processing

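The count of 8 genes with a probe on both cell arrays and neither vesicle array was 7 at a detection limit of 0.05 and 8 at 0.005. At 0.05 Maea left and 11 member probes remained. The class of 1051 such probes was 1054 and 1097 at those limits. Leaving out an RNA array drops a condition of the rule, so no member can leave and the class can only grow. The count of 8 on leaving out any RNA array was thus fixed in advance. The class then held 1149 to 1594 probes, with 1594 without vesicle array 2. The limma count of 0 higher and 0 lower probes also held with offset 50, with the authors' processed values and over the probes on all 4 RNA arrays. It was 7 higher and 1651 lower with median scaling, 5 and 1416 with no normalization between arrays, 16 and 163 with no filter, 968 and 1735 with chip as a block and 10 and 677 with an intensity trend. Leaving out 1 array gave 0 to 965 higher and 0 to 2686 lower. The fits without a vesicle array or with chip as a block have only the cell pair to estimate spread, and the lone vesicle array is assumed to vary like the cells, and the cause of the other changes was not tested. With replicate number as a block, which the labels do not give as a pairing, limma called 0 higher and 0 lower. Same-numbered deviations correlated at -0.24 over the tested probes, and the crossed pairing as a block, chosen after seeing the data, also gave 0 and 0. The log2 differences of the 14 member probes that met the rule kept their sign under every alternative run. These probes were chosen by the same values, so the kept sign is no support. No bound could be given at a detection limit of 0.05 for Maea and for the brightest Rasgrf1 probe, which then count as seen. A difference below the detection limit of a vesicle array is not detectable here, and the member levels in vesicles are bounds only.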
